A study of Drosophila melanogaster with 3 samples.

Results

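The 10 genes described here encode the replicative helicase Mcm2, Mcm3, dpa (the fly Mcm4), Mcm5, Mcm6 and Mcm7, the origin recognition subunits Orc1 and Orc2, the sliding clamp PCNA and the small subunit of ribonucleotide reductase, RnrS. They were picked by name from the 13945 protein-coding genes on the 6 chromosomes covered by the lists, and the rule used no value from the lists, though earlier results of these data were known when they were picked. For each gene, every entry of the deposited dm6 peak lists whose summit fell in the gene body or within 2 kb of it was collected, which gave 6 of the 8131 peaks of the optimal list. All 10 symbols matched the Release 6 annotation.

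The lists came from chromatin immunoprecipitation and sequencing (ChIP-seq) of Hmr-GFP in whole Drosophila melanogaster embryos of mixed sex, collected at 0 to 24 h. The line stably expressed Hmr, a chromatin protein known from lethality of fly hybrids, with GFP fused to the C-terminal end, and chromatin was pulled down through the tag with an anti-GFP antibody. There was 1 group of 3 biological replicates from 1 line, and every embryo carried the transgene, so no comparison between conditions was possible. The promoter that drives the transgene is not given in the sources used here, nor is the state of the native Hmr gene. Embryos of all ages and cell types were pooled, so strong binding in few cells and weak binding in many cannot be told apart.

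The origin recognition complex marks the DNA sites where replication can begin, and in G1 phase it loads the ring of MCM proteins that later unwinds the DNA. PCNA then encircles the DNA and holds the polymerases on it, while ribonucleotide reductase makes the deoxynucleotides they use. In flies, genes of this kind are known targets of the E2f1-Dp activator and of DREF, which binds the DRE sequence, and the early embryo draws on maternal stores of their products during its fast divisions.

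Each entry carries a signal, the authors' own value for the strength of a peak, and a summit, its highest point. Signal was read only within 1 list, and an entry's rank is its place by signal, with rank 1 the strongest. The optimal list spanned signals of 154 to 6656 with a median of 276, and it held exactly the 8131 strongest of the 30000 entries called on the pooled replicates. Each replicate list also held 30000 entries, of medians 34.2, 29.9 and 35.6, and its strongest 8131 entries were set beside the optimal list. The lists give no read counts, so depth is unknown and a missing entry means only that the gene had none among the 30000.

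Hmr-GFP entries stood near some of the replication genes and not others. An optimal summit lay in the body of or within 2 kb of 6 of the 10 genes, namely Mcm2, dpa, Mcm7, Orc1, PCNA and RnrS (60.0%, 95% Clopper-Pearson interval 26.2% to 87.8%, which covers counting error only). Among all protein-coding genes the share was 44.9%, and among the 5931 genes between 1130 and 3444 bp long, the range of the 10 genes, it was 39.7%. Both shares lay inside the interval of the 10 genes. None of the 6 summits lay inside the gene itself, and only 17.2% of all protein-coding genes had an optimal summit in the gene body.

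Nearer to the start of transcription the picture was the same. Mcm2, Orc1 and RnrS had an optimal summit within 250 bp of their own start, which is 3 of 10 genes (30.0%, interval 6.67% to 65.2%) beside 23.4% of all protein-coding genes. Entries in the gene body or within 2 kb in every one of the 3 replicate lists were again found for Mcm2, dpa, Mcm7, Orc1, PCNA and RnrS, 6 of 10 (60.0%, interval 26.2% to 87.8%) beside 54.9% of all protein-coding genes. A start entry among the strongest 8131 of all 3 replicates was found for 4 genes, Mcm2, Orc1, RnrS and dpa (40.0%, interval 12.2% to 73.8%), beside 15.2%. All 4 intervals include the share over all genes. With 10 genes they are wide, so these counts cannot show whether the 10 genes differ from other genes.

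**Figure D1:**
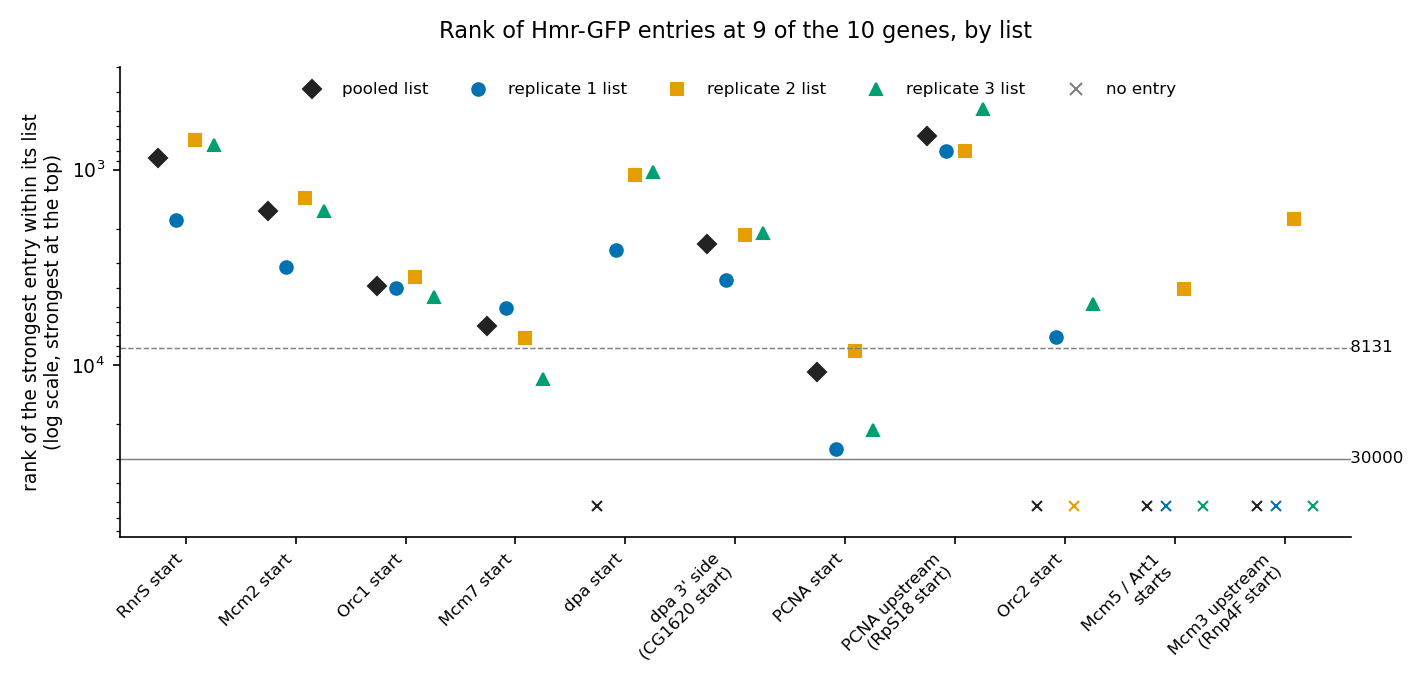
Rank of the strongest entry at each site within its list (log axis, strongest at the top) for 9 of the 10 genes, with 1 symbol per list and crosses below the line at 30000 where a list had no entry. The site at the dpa start ranked 2558, 1066 and 1030 in the 3 replicates and has a cross for the pooled list, and Mcm6, with no entry in any list, is not drawn.

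Of the MCM genes, Mcm2 carried the strongest optimal peak at its own start. Mcm2 lies on chromosome 3R from 8264970 to 8267924 on the plus strand (FBgn0014861), and the start of RPA1, the gene of the large subunit of the single-strand binding protein RPA, lies 519 bp upstream on the other strand. The peak from 8264529 to 8264984 had a signal of 507 at rank 1633, with its summit at 8264757, between both genes, 213 bp from the Mcm2 start and 306 bp from the RPA1 start. The strongest entry had a signal of 110 at rank 3159 in replicate 1, of 195 at rank 1393 in replicate 2 and of 192 at rank 1625 in replicate 3. All 3 thus held the site well inside their strongest 8131 entries, with replicate 1 ranking it lowest. The summits of these entries lay 283, 127 and 202 bp upstream of Mcm2. In replicate 1 the summit was nearer to RPA1, at 236 bp, than to Mcm2. The 201 bases around the pooled summit are shown because they are the most AT-rich at any of the 6 sites, with a GC content of 24.9%, and only 3.12% of all optimal summits had less. They are the plus strand of dm6 at chr3R:8264657-8264857, outside any annotated exon, and capitals mark the 11 bases centred on the summit.
Mcm2: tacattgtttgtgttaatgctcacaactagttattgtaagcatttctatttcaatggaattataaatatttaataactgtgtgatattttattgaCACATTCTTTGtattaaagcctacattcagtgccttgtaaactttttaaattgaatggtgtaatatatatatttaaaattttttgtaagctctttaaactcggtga

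Mcm7 had the weakest of the 6 optimal peaks and the only one outside the strongest 8131 entries of a replicate. The gene lies on 3L from 8891596 to 8894310 on the plus strand (FBgn0020633), and the nearest divergent start upstream, that of CG43169, is 2963 bp away. Its peak from 8891080 to 8891535 had a signal of 193 at rank 6285, so 77.3% of optimal peaks were stronger. The summit at 8891308 lay 288 bp upstream of the start. A weaker pooled entry at rank 14696 had its summit 37 bp upstream. The strongest nearby entry ranked 5109 in replicate 1 (signal 80.4), 7236 in replicate 2 (56.0) and 11788 in replicate 3 (44.6), with summits 289, 329 and 140 bp upstream. Replicate 3 therefore placed it outside its strongest 8131 entries, and replicates 1 and 2 inside. The window is shown as a contrast to Mcm2, since its GC content of 37.8% was close to the median of 36.8% over all optimal summits. It is the plus strand at chr3L:8891208-8891408, with the 11 bases centred on the summit in capitals and no annotated exon.
Mcm7: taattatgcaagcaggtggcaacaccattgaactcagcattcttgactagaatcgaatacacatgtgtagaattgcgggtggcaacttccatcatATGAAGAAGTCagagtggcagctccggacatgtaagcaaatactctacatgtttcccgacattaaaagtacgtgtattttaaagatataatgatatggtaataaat

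At dpa, which encodes the Mcm4 subunit, the replicate lists and the pooled list differed. The gene runs on the minus strand of 2R from 7496702 to 7500145 (FBgn0015929), with starts at 7500145 and 7499877. The start of didum, which encodes a class V myosin, lies 2 bp from the first dpa start on the other strand. All 3 replicates had an entry at these paired starts, with signals of 124, 228 and 245 at ranks 2558, 1066 and 1030. The summits at 7500039, 7500011 and 7500052 lay in the dpa 5′ UTR, 106, 134 and 93 bp from the nearer dpa start and 108, 136 and 95 bp from the didum start. These ranks would place the dpa start among the stronger sites of the 10 genes, ahead of Mcm2 in every replicate. The pooled list, called on the same 3 replicates, had no entry there, and its nearest summit lay 3481 bp from the summit of replicate 3.

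A gap of this kind was rare in the lists. Of the 4913 strongest entries of replicate 3 that were matched within 200 bp in the strongest entries of replicates 1 and 2, 18 (0.366%) had no pooled summit within 500 bp. By median rank the dpa start, at 1066, was the second strongest of the 18. With 200 bp in place of 500 bp the count was 28 (0.570%), and with 1000 bp it was 16 (0.326%). The reason for the missing pooled entry was not tested. Counts taken from the optimal list omit this site, which is why the number of the 10 genes with a start entry was 3 by the optimal list and 4 by the strongest entries of all 3 replicates.

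The optimal peak credited to dpa stood at the opposite end of the gene. It ran from 7496339 to 7496453 on 2R, with a signal of 399 at rank 2401. Its summit at 7496370 lay past the 3′ end of dpa and 23 bp upstream of a start of CG1620. The replicates ranked this site 3656, 2159 and 2107, with summits 19, 21 and 7 bp from a CG1620 start. The nearest start in each list was thus that of CG1620 and not of dpa.

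Entries at Mcm5 and Mcm3 were found in replicate 2 alone. Mcm5 (3R, 10788524 to 10791150, plus strand, FBgn0017577) shares a promoter region of 298 bp with Art1, which encodes an arginine methyltransferase. Replicate 2 had summits 272 and 73 bp upstream of Mcm5, with signals of 92.5 and 67.5 at ranks 4087 and 5906, and the first lay 26 bp from the Art1 start. Neither of the other replicates nor the pooled list had an entry in the body of Mcm5 or within 2 kb, and the nearest optimal summit lay 40686 bp from its start, with only 5.12% of protein-coding genes farther from one. For Mcm3 (X, 5323855 to 5326738, plus strand, FBgn0284442), replicate 2 had an entry at 5322762 with a signal of 169 at rank 1793, which is 1093 bp upstream of Mcm3 and 66 bp upstream of the start of its neighbour Rnp4F. Of the strongest 2000 entries of replicate 2, this entry was among 16 (0.800%) with no entry of another replicate or the pooled list within 500 bp. Why only replicate 2 held it was not tested.

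Mcm6 was the only one of the 10 genes with no entry in any list. It lies on X from 6674387 to 6677176 on the plus strand (FBgn0025815), 414 bp from the divergent start of CG3198. The nearest optimal summit lay 5003 bp from its start, and 47.7% of protein-coding genes were farther from one. By distance to an optimal summit, Mcm6 was therefore an ordinary gene, and so was Mcm3, at 5684 bp with 44.5% farther. The nearest pooled summits lay at the same distances, with 25.4% of protein-coding genes farther for Mcm6 and 22.3% for Mcm3. The median distance to a pooled summit was 1225 bp over all protein-coding genes. To an optimal summit it was 2421 bp over the 10 genes and 4492 bp over all protein-coding genes. The nearest pooled summit lay 34 to 213 bp from the first start of Mcm2, Mcm7, Orc1, PCNA and RnrS. For the rest of the 10 genes it lay 3574 to 18789 bp away, farther than that median of 1225 bp.

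**Figure D2:**
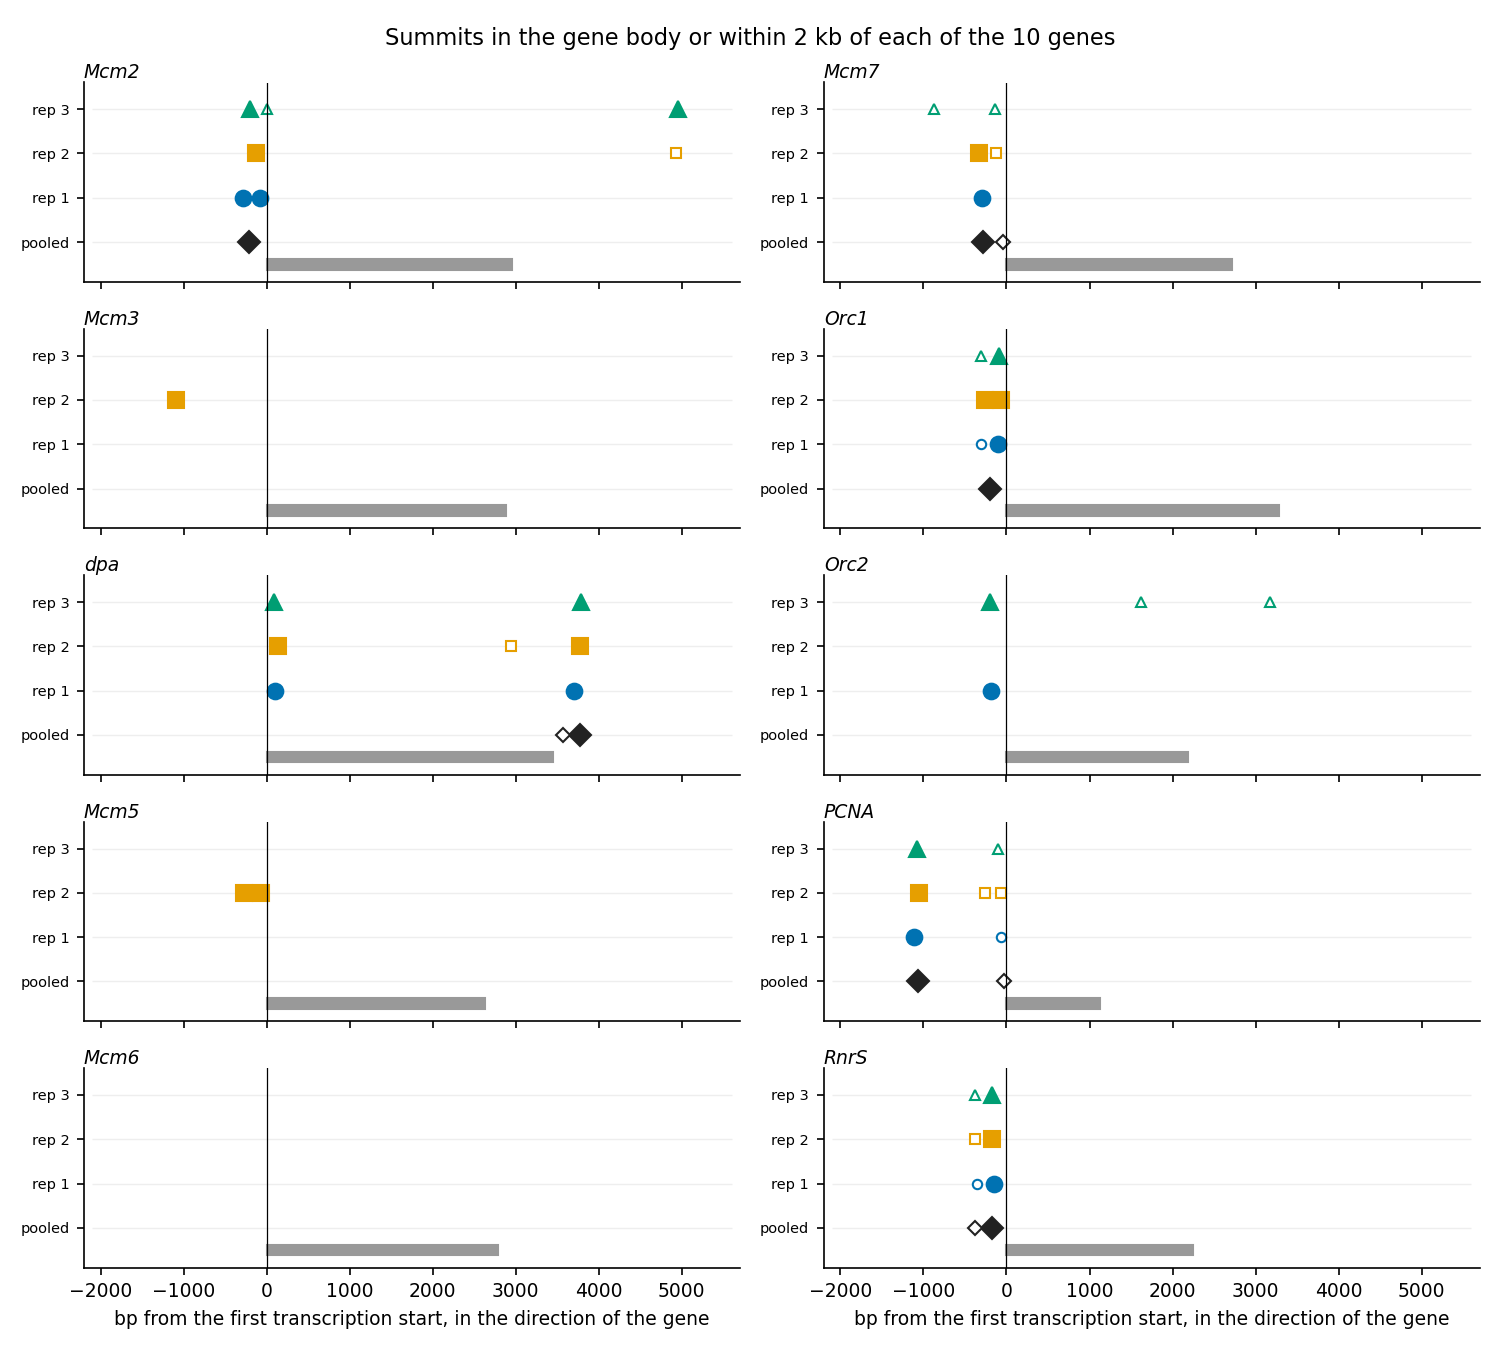
Summits around each of the 10 genes, in bp from the first transcription start in the direction of the gene, with the gene body in grey, 1 row per list, filled symbols for entries among the strongest 8131 of their list and open symbols for weaker ones. Optimal summits, the filled symbols in the pooled rows, lie 174 to 288 bp upstream at Mcm2, Mcm7, Orc1 and RnrS, at 1068 bp upstream of PCNA and downstream of dpa.

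The origin recognition gene Orc2 had entries that coincided with a DRE. The gene lies on 3R from 13964885 to 13967075 on the plus strand (FBgn0015270), 711 bp from the divergent start of Kots. Replicate 1 had a signal of 62.9 at rank 7183 and a summit 185 bp before the Orc2 start, while replicate 3 had a signal of 96.1 at rank 4843 and a summit 197 bp before it. Replicate 2 and the pooled list had no entry there, and the nearest pooled summit lay 18789 bp away, farther than for all but 3.53% of protein-coding genes. The DRE (TATCGATA) at 13964684 to 13964691 contained the summit of replicate 3 and lay 9 bp from that of replicate 1. Within 100 bp of the summit, 2.01% of the 30000 entries of replicate 3 and 1.30% of those of replicate 1 held a DRE. A copy of the same 8 bases starting inside the gene, at 13964902 to 13964909, lay 202 bp from the summit of replicate 1 and 214 bp from that of replicate 3. The 250 bases before the start are shown, plus strand of dm6 at chr3R:13964635-13964884, with the upstream DRE in capitals.
Orc2: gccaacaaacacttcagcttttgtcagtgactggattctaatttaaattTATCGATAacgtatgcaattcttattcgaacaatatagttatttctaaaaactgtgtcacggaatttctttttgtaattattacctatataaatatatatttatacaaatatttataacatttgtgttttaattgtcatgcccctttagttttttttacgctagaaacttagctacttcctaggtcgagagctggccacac

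Orc1, the largest subunit of the complex and an ATPase, had an entry in every list. It lies on 2R from 7522437 to 7525716 on the minus strand (FBgn0286788). Its optimal peak from 7525688 to 7526143 had a signal of 282 at rank 3938, close to the middle of the list, with 48.4% of optimal peaks stronger. The replicates had signals of 93.9, 104 and 102 at ranks 4013, 3543 and 4455, the narrowest spread of ranks among the optimal peaks at the start of a gene of the 10. The pooled summit at 7525916 lay 200 bp upstream of the start, and the strongest summits of the replicates lay nearer, at 107, 61 and 96 bp. In all 3 replicates a weaker entry followed at 307, 262 and 304 bp upstream. The pooled summit thus fell between the paired summits of every replicate. Pairs of similar spacing were also listed elsewhere, so they were not particular to Orc1. RnrS had summits at 152 and 359 bp upstream in replicate 1, and Mcm5 at 272 and 73 bp in replicate 2. The reason for this spacing was not tested.

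PCNA had a weak entry of its own, and the strong peak near it stood at a ribosomal protein gene. PCNA lies on 2R from 20261754 to 20262883 on the minus strand (FBgn0005655), followed upstream by plu, which controls replication in the early embryo, and by RpS18, the start of which lies 1096 bp from that of PCNA. The optimal peak from 20263787 to 20264114 had a signal of 830 at rank 673, the strongest near any of the 10 genes, and only 8.26% of optimal peaks were stronger. Its summit at 20263951 lay 28 bp upstream of the RpS18 start, 267 bp from that of plu and 1068 bp from that of PCNA. The replicates ranked it 805, 806 and 488, with signals of 236, 265 and 348. At the PCNA start itself the pooled list had an entry with its summit 34 bp upstream and a signal of 118 at rank 10783, outside the optimal list. The replicates ranked that entry 26841, 8484 and 21464, with signals of 20.3, 48.8 and 25.6. No replicate placed the PCNA start among its strongest 8131 entries. A DRE centred 24 bp upstream of the PCNA start lay 7 bp from the pooled summit and 41, 36 and 73 bp from those of the replicates.

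RnrS had the strongest optimal peak at the start of any of the 10 genes. It lies on 2R from 11983145 to 11985393 on the minus strand (FBgn0011704), and CG34231 starts 615 bp upstream on the other strand. The peak from 11985445 to 11985721 had a signal of 730 at rank 872, so 10.7% of optimal peaks were stronger. Its summit lay 174 bp upstream of RnrS and 441 bp from CG34231. The replicate signals were 152, 286 and 286 at ranks 1812, 705 and 749, and the summits lay 152, 173 and 175 bp upstream. Position differed by 23 bp at most between replicates, and replicate 1 ranked the site lowest, as it did for Mcm2 and the dpa start. A weaker summit lay 382 bp upstream in the pooled list, at rank 10322, and at ranks 8850, 8852 and 8655 in the replicates. Outside the replication genes, the closest matches to the RnrS ranks among 2811 genes with an optimal start summit and an entry beside it in every replicate list were Faf2 and Grip71, which share a peak (ranks 2172, 689 and 747), and CG10343 (1386, 714 and 776), by a summed absolute log2 ratio of ranks over the 3 replicates of 0.298 and 0.456.

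The start peaks of Mcm2, Orc1 and RnrS all had signals above the median of the optimal list, with 20.1% of optimal peaks stronger than that of Mcm2, 48.4% stronger than that of Orc1 and 10.7% stronger than that of RnrS. Of the 3260 protein-coding genes with a start summit, 2124 also had one above the median of the optimal list. The start peaks of Mcm2, Orc1 and RnrS had a median signal of 507 (282 to 730), beside a median of 348 (154 to 5447) over those 3260 genes. GC content around the summit was below the median of 36.8% at all 3, with 24.9% at Mcm2, 29.4% at Orc1 and 29.9% at RnrS. It was above the median at the other 3 sites, with 37.8% at Mcm7, 38.3% at the dpa peak beside CG1620 and 45.3% at the PCNA peak beside RpS18.

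Letters of the E2F consensus were common in the promoters of these genes, taken as 250 bases before to 50 bases after any start. A match to TTTCCCGC, TTTGGCGC, TTTCGCGC or TTTGCCGC on either strand was present at 7 of the 10 genes (70.0%, interval 34.8% to 93.3%), namely Mcm2, Mcm3, dpa, Mcm5, Mcm6, Orc1 and RnrS. All protein-coding promoters held one in 8.72% of cases. The 7 genes include Mcm6, with no entry in any list, and Mcm3 and Mcm5, with entries in 1 replicate only. Matches are printed for these 3 and for Mcm2, whose start had an optimal summit, so that promoters with and without one can be set side by side. Each is the plus strand of dm6 with 10 bases to either side of the match in capitals, at chr3R:8264996-8265023 for Mcm2, chrX:5323839-5323866 for Mcm3, chr3R:10788546-10788573 for Mcm5 and chrX:6674390-6674417 for Mcm6.
Mcm2: tagcaaacatTTTCCCGCgcattttcgc
Mcm3: acactacgctTTTCCCGCgaaaaaactt
Mcm5: ggtaattttgGCGGCAAAatattcgcac
Mcm6: tcagaaaaagGCGCCAAAaccgagcaaa

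Mcm2 and Mcm3 thus carried the same 8 letters, and Mcm5 and Mcm6 carried other versions on the opposite strand. The matches were centred 40, 36 and 17 bp inside the transcribed part of Mcm2, Mcm5 and Mcm6 and 2 bp upstream of the Mcm3 start. No optimal summit sat on a match. The distance from the match to the optimal summit was 249 bp at Mcm2, 203 bp at Orc1 and 120 bp at RnrS, for the nearer of its 2 matches. From the strongest summits of replicates 1, 2 and 3 it was 319, 163 and 238 bp at Mcm2, 110, 64 and 99 bp at Orc1 and 98, 119 and 121 bp at RnrS. At the dpa start the nearer match lay 75, 47 and 88 bp from them. The weaker entries at Mcm2 came closer, with 120 bp in replicate 1 and 35 bp in replicate 3. A match lay 73 bp from the optimal summit beside CG1620, and within 100 bp 3.73% of all optimal summits held one.

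DRE matches were present at Orc2 and PCNA, 2 of 10 promoters (20.0%, interval 2.52% to 55.6%) beside 10.2% of all. The optimal summits near the 10 genes held no DRE within 100 bp, nor within 250 bp, while 3.37% of all optimal summits did within 100 bp. Both genes with a DRE had entries near it only below the optimal list or in some replicates. The core of the M1BP sequence, GTGTGACC, which is found at many housekeeping promoters, was present at Mcm3 alone, beside 8.71% of all promoters. Over all genes a start summit was present at 34.0% of promoters with an E2F match and 22.4% of those without, at 35.0% and 22.1% for the DRE and at 41.6% and 21.6% for the M1BP core.

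**Figure D3:**
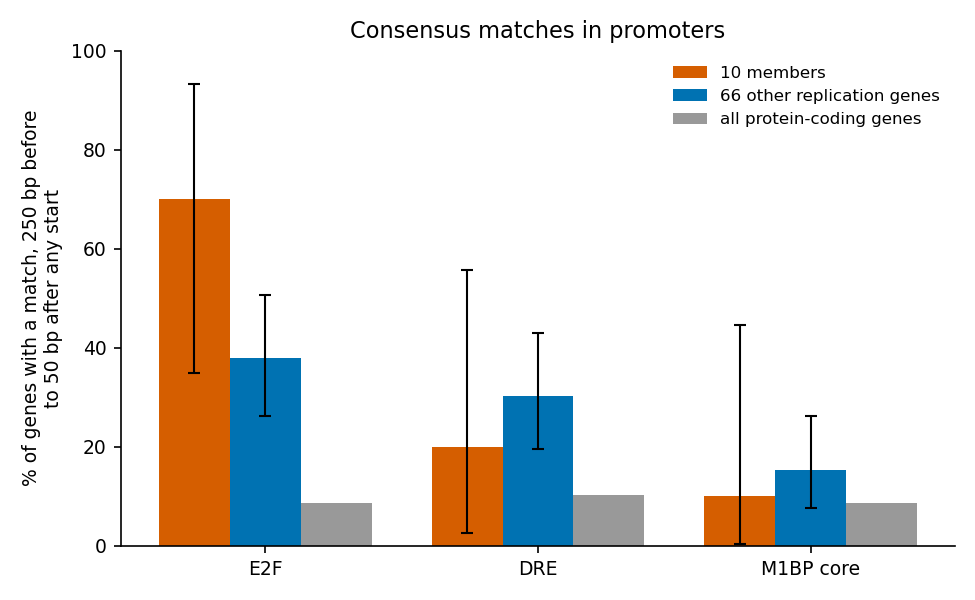
Percent of promoters, 250 bp before to 50 bp after any start, with a consensus match on either strand in the 10 genes, 66 other replication genes and all 13945 protein-coding genes, with exact Clopper-Pearson 95% intervals for the gene lists. E2F matches were present at 70.0%, 37.9% and 8.72% of promoters, and the intervals of the 10 genes span wide ranges for all 3 sequences.

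Other genes of DNA replication gave similar shares. Of 66 such genes, 19 had an optimal summit within 250 bp of a start (28.8%, interval 18.3% to 41.3%) beside 23.4% of all genes, and 34 had one in the body or within 2 kb (51.5%, interval 38.9% to 64.0%) beside 44.9%. The summit was matched in the strongest 8131 entries of all 3 replicates at 11 of the 66 (16.7%, interval 8.62% to 27.9%), beside 15.5% of all protein-coding genes. The median signal at the 19 starts was 280 (166 to 1214), below the 348 of all genes with a start summit. E2F matches were present at 25 of the 66 promoters (37.9%, interval 26.2% to 50.7%) and the DRE at 20 (30.3%, interval 19.6% to 42.9%).

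By role the numbers were small, and each count below stands beside the 23.4% of all protein-coding genes with an optimal start summit, so most genes of any kind lack one. Of 4 other origin recognition subunits only Orc4 had one, with a signal of 187, and of 5 licensing genes only dup, the fly Cdt1, with a signal of 654 at rank 1060. This strongest dup summit lay 111 bp from a dup start and 1 bp from a start of SRPK. Another optimal summit lay within 100 bp of a dup start, and dup kept one when each summit counted only for its nearest start. Of 9 genes of the active helicase and its firing, 3 had one, namely Cdc7 with a signal of 905, its activator chif with 494 and the GINS subunit Psf3 with 255. The Psf3 summit lay 65 bp from Psf3 and 34 bp from a start of flw. Neither RPA1 and the other 5 genes of single-strand binding, ligation and nuclease steps, nor the 4 genes of nucleotide supply other than RnrS, had an optimal start summit. Among 5 genes of the fork and checkpoint the count was also 0. These counts depend on the 250 bp cut. Within 500 bp of a start, RPA1 and the checkpoint gene grp had an optimal summit, beside 28.1% of all protein-coding genes.

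Among the other genes the strongest start peaks were those of Dp, PolD2 and Dref. PolD2, a subunit of polymerase delta, had a signal of 1151 at rank 345, and of 11 polymerase and primase genes 3 more had a start summit, among them PolA1 with 229 and PolE1 with 204. CG8142 with 631 and PCNA2 with 462 were the 2 of 8 clamp loader and clamp genes, and asf1 with 280 and Slbp with 268 were the 2 of 5 chromatin assembly genes. The PCNA2 and asf1 summits lay nearer to the start of another gene. Beside the same 23.4% of all protein-coding genes, the shares were 36.4% for polymerase and primase genes, 25.0% for clamp genes and 40.0% for chromatin assembly genes. Among 9 regulators 6 had a start summit (66.7%). Of these, the E2f2 summit, with a signal of 166, lay 46 bp from E2f2 and 10 bp from a start of Mpp6. The Rbf summit lay 250 bp from its start, at the cut itself. Dp, the partner of E2f1, led with a signal of 1214 at rank 319. Dref, the gene of DREF, followed with 1145 at rank 351. Only these 2 of the 9 had a start summit matched in the strongest entries of all 3 replicates, beside 15.5% of all protein-coding genes. The start summits of the other regulators were matched in fewer replicates. The Dref summit lay 66 bp upstream of Dref and 18 bp from a start of RpL13. The third regulator by signal was ago, which targets Cyclin E for destruction, with 297.

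**Figure D4:**
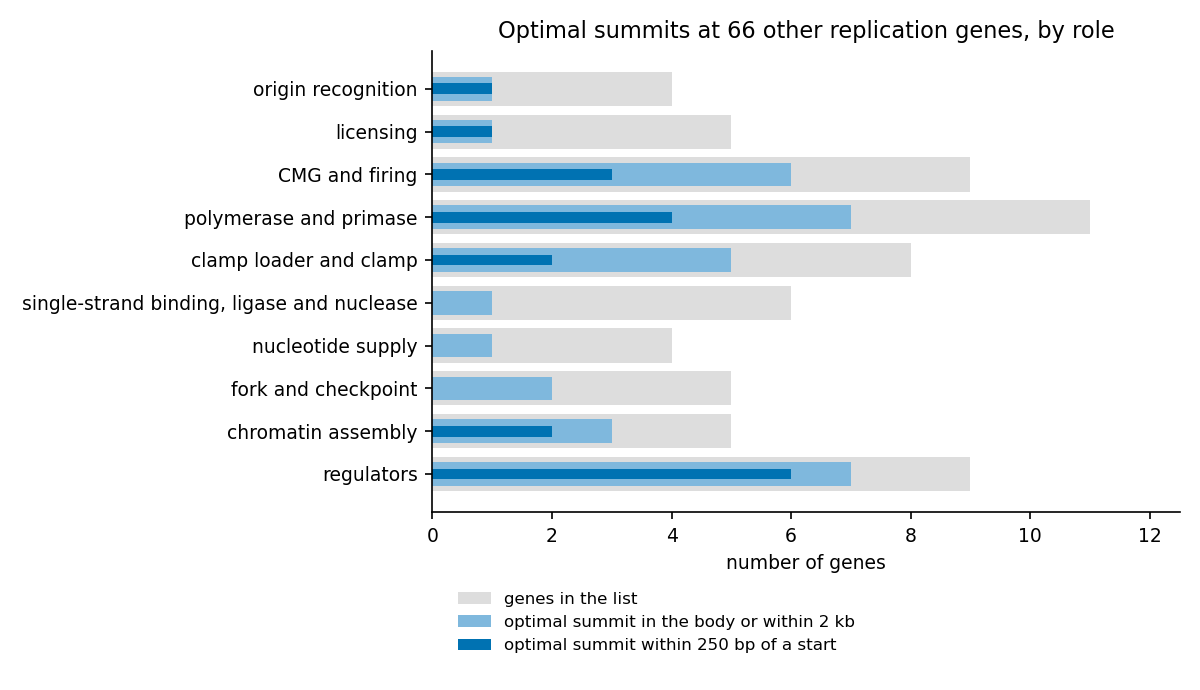
Number of 66 other replication genes in each role (grey) with an optimal summit in the body or within 2 kb (light blue) or within 250 bp of a start (dark blue). Regulators had 6 of 9 at a start, of which 2 had the optimal summit matched within 200 bp in the strongest entries of all 3 replicates. At a start, 3 roles (single-strand binding, ligase and nuclease, nucleotide supply, and fork and checkpoint) had none.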

How the data were processed

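The 3 replicates of Hmr-GFP ChIP-seq came from 1 group, numbered by the labels, with fragments of 200 to 800 bp after sonication, per the labels. The authors deposited peak lists in narrowPeak form, with a signal for each entry and no read counts. Each replicate and the pooled replicates have a relaxed list that includes background entries, and the irreproducible discovery rate selected the optimal list, per the samples' deposited text files. The name of the peak caller is not given in the sources used here, nor are the aligner and the threshold. The lists also come in dm3, which was not used here because no dm3 annotation was at hand.

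The members and lists were chosen with earlier results of these data known. The annotation was Ensembl release 115 of Release 6, the assembly of dm6, and sequences were read from the RefSeq FASTA of the same assembly. Of 67 listed symbols of other replication genes, 65 matched directly, 1 by a synonym and 1 (And-1) not at all. A summit counted for a gene when it lay in the body or within 2 kb, or within 250 bp of any start, and a match in a replicate meant a summit no more than 200 bp away among its strongest 8131 entries. Named were all 10 genes with the neighbours of their optimal summits and head-to-head starts, up to 3 other genes per role by signal, and the 3 genes most like the member with the strongest start summit. RPA1, grp, the regulators E2f1, E2f2 and Rbf, and a few neighbours were named after their values were seen. With 1 group no test was run, and shares have exact Clopper-Pearson 95% intervals, beside the share over all protein-coding genes. Assignment of summits to genes was tested on simulated data. Python 3.11.15, pandas 2.3.3 and NumPy 2.4.6 were used. Alternatives covered the distances, the list and its stringency, and pairs of replicates, for matches of optimal peaks or for entries in their lists.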

Additional observations from a re-analysis of the deposited data

How the results depend on the processing

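The share of all protein-coding genes under the same setting follows each count in parentheses. The 6 genes with an optimal summit in the body or within 2 kb (44.9%) were 0 in the gene body alone (17.2%), 5 with 1 kb (38.9%) and 8 with 5 kb (59.3%). They were 5 with peaks of above-median signal (32.1%) or matched in all 3 replicates (33.7%). Optimal peaks, called on all 3 replicates, were also kept if matched in the strongest 8131 entries of a pair of replicates. The genes were then 5 to 6 (35.0% to 38.2%). With the pooled list they were 6 (65.0%), so the share of the 10 genes, above that of all genes in the optimal list, was below it there. The 3 genes with a start summit (23.4%) were 0 within 100 bp of a start (13.4%) and 5 with the pooled list (36.3%). With optimal peaks matched in each pair of replicates they were 3 (16.0% to 18.5%). With the strongest 8131 entries of replicates 1, 2 and 3 in turn, an alternative chosen after seeing the data, they were 5, 5 and 5 (22.4%, 23.5% and 27.6%). The genes were not all the same. Mcm2, Orc1, RnrS and dpa recurred, joined by Orc2 in replicates 1 and 3 and by Mcm5 in replicate 2. The 6 genes with an entry in every replicate list (54.9%) were 1, dpa, in the gene body alone (22.6%) and 6 to 7 with a replicate left out (56.9% to 62.6%). No optimal summit window of the 10 genes held a DRE within 250 bp, the widest tried. Narrower windows and subsets of these summits could therefore hold none, so their counts of 0 add nothing. The 19 other replication genes with a start summit (23.4%) were 11 within 100 bp (13.4%), 10 with peaks of above-median signal (15.2%), 11 with those matched in all 3 replicates (15.5%) and 30 with the pooled list (36.3%). They were 12 to 14 with optimal peaks matched in a pair of replicates (16.0% to 18.5%), lowest for replicates 1 and 2. With the strongest entries of replicate 3 alone they were 29 (27.6%) and with those of all 3 replicates 12 (15.2%), also chosen after seeing the data. No paired analysis was possible because there was 1 group. Depth is unknown, so an absent entry could not be told from one that was too weak.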

Other observations

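The sites missing from the pooled list, like the dpa start, were spread over the genome. The strongest of the 18 by median rank lay 1440 bp from a start of tsr, the gene of the actin-severing protein cofilin, with ranks of 537, 455 and 448 in replicates 1, 2 and 3 and the nearest pooled summit 1471 bp away. Next after dpa came a summit 12 bp from a start of CG12299, with ranks of 4231, 1087 and 1306. The list also held a summit 14 bp from a start of Fmr1, the gene of the fragile X protein, with ranks of 4567, 2008 and 2743, and one 86 bp from a start of the corepressor gene CtBP, with ranks of 7137, 3245 and 6489. Why these sites have no pooled entry was not tested.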
